A study of Mus musculus with 2 samples.

Results

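The genes described are 10 transcripts known from the specification and early life of mouse primordial germ cells (PGCs), the embryonic precursors of eggs and sperm. They are *Prdm1* (also called *Blimp1*), *Prdm14*, *Tfap2c*, *Dppa3*, *Ifitm1*, *Ifitm2*, *Ifitm3*, *Prmt5*, *Wdr77* and *Alpl*. They were chosen by gene symbol for their known roles. The rule uses no measured value, although it was drawn up with earlier results of these data known. Of the 10, 9 had a row under their own symbol in both libraries, out of 18332 genes with a symbol in both libraries and a value above 0 in at least 1 of them. *Wdr77* had its own row in the control library only and is described apart.

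Expression was measured by RNA-seq in PGCs taken at E13.5, infected with lentivirus at an MOI of 5 and kept in culture for 1 day. The control PGCs carried a control lentivirus and the Klf9-OE PGCs a lentivirus for over-expression of *Klf9*, a Krüppel-like transcription factor. Each condition had 1 library, so no difference has a replicate check and no test of the conditions was possible. The PGCs were sorted from Oct4-deltaPE-GFP embryos (MCH females mated with transgenic males) by their strong GFP signal and were cultured on gelatin without feeder cells, male and female genital ridges having been collected. The sample labels describe the medium as containing bFGF, whereas the results of the paper describe this culture as lacking it, and neither source gives the libraries different media. Values are FPKM (read numbers scaled to the length of the transcript and the size of the library), given with the 95% interval that Cufflinks attached to the estimate. That interval covers the error of estimation within a library and not the difference between cultures. Read totals are unknown. *Klf9* itself had an FPKM of 2.27 (1.97 to 2.57) in the control library and 80.8 (77.0 to 84.5) in the Klf9-OE library, endogenous and vector transcripts being counted together.

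PGCs arise in the early embryo when BMP signals from neighbouring tissue switch on *Prdm1* and *Prdm14* in a few epiblast cells. PRDM1 represses the somatic program, PRDM14 helps to restore pluripotency genes and to lower DNA methylation, and TFAP2C acts downstream of PRDM1 and together with both. Loss of BLIMP1 favours the conversion of PGCs into pluripotent embryonic germ cells, the reprogramming that the present culture serves. The germ cells then carry surface and nuclear markers by which they were first recognised, among them the interferon-induced transmembrane proteins (fragilis), DPPA3 (Stella) and tissue-nonspecific alkaline phosphatase.

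Most of these transcripts were modestly lower in the Klf9-OE library. *Dppa3* and *Alpl* differed most, both at about 0.6 times the control level, and *Prdm1*, *Prdm14* and *Tfap2c* lay between 0.743 and 0.801 times the control level. *Ifitm1* was the single exception in the other direction, at 1.36 times the control level, while *Ifitm2* and *Prmt5* had intervals that overlapped between the libraries. None of the 9 genes differed 2-fold, the size of change used in the study, whereas 19.3% of all 18332 genes did, or 5.6% of the 9387 genes with an FPKM of at least 4 in at least 1 library. At a threshold of 1.5-fold, 2 of the 9 were lower (15.1% of all genes, 6.67% of those with an FPKM of at least 4) and 0 were higher (16.1% and 5.11%). The intervals lay apart for 7 of the 9 genes. Of these, 6 were lower in the Klf9-OE library (14.4% of all genes and 22.3% of those with an FPKM of at least 4) and 1 was higher (11.3% and 15.3%). The limit of 4 was set after the levels of these genes had been seen, since intervals narrow as the level rises. The median log2 fold change of the 9 genes, calculated as log2(FPKM + 0.1) in Klf9-OE minus control, was -0.31, against -0.01 over all genes and -0.03 over genes with an FPKM of at least 4. In bulk RNA, fewer germ cells and less RNA per germ cell cannot be told apart.

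**Figure D1:**
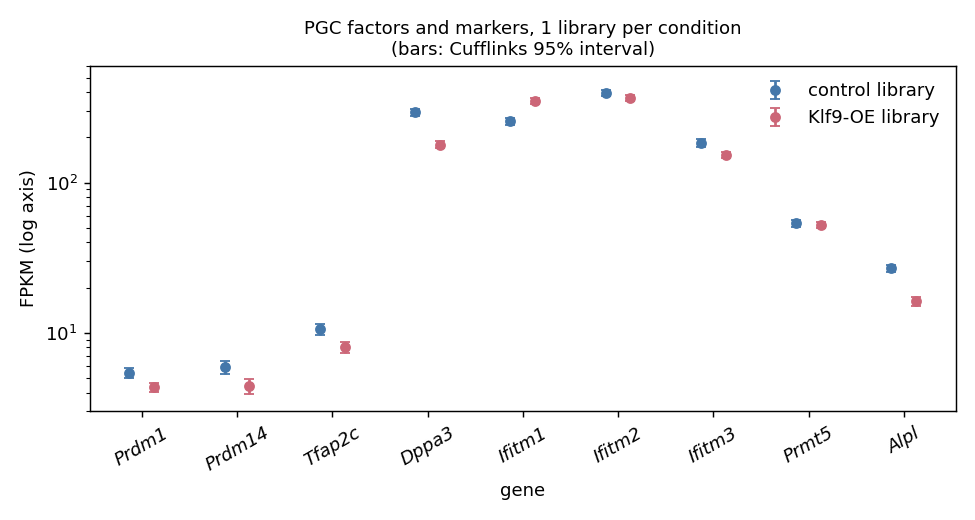
FPKM (log axis) of the 9 genes in the control and Klf9-OE libraries, 1 library each, with bars for the Cufflinks 95% interval. *Dppa3* and *Alpl* show the widest gap between the libraries, *Ifitm1* is higher in the Klf9-OE library, and the points of *Ifitm2* and *Prmt5* overlap.

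The highest level, that of *Ifitm2*, was 73.0 times the lowest, that of *Prdm1*, in the control library and 84.7 times in the Klf9-OE library. Since FPKM is calculated per length of transcript, levels can be set side by side between genes. In the control library the order from the highest was *Ifitm2*, *Dppa3*, *Ifitm1*, *Ifitm3*, *Prmt5*, *Alpl*, *Tfap2c*, *Prdm14* and *Prdm1*. In the Klf9-OE library *Ifitm1* and *Dppa3* changed places and the other ranks were kept. The intervals of *Prdm1* and *Prdm14* overlapped within each library, as did those of *Ifitm1* and *Ifitm2* in the Klf9-OE library, so these neighbours in the order were not separated. By level, *Prdm1* stood at percentile 55.0 of all genes in the control library and *Ifitm2* at percentile 99.2. *Tfap2c* was at percentile 65.3 and *Alpl* at 81.4, between the *Prdm* genes and the more abundant *Prmt5*, *Dppa3* and *Ifitm* genes.

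*Prdm1* encodes BLIMP1, a zinc-finger repressor that founds the germ line. It lies on chromosome 10 of mm10 from 44437174 to 44458748 in the files, on the reverse strand, and its longest coding transcript in GENCODE M21 has 8 exons and 5281 nt, of which 2568 nt are coding. Its FPKM was 5.42 (5.03 to 5.82) in the control library and 4.34 (4.02 to 4.67) in the Klf9-OE library. The Klf9-OE value was 0.801 times the control value, a log2 fold change of -0.31, and the ranges did not touch. Taking the opposite bounds of the intervals, the log2 fold change could lie between -0.52 and -0.10. Of the genes with an FPKM of at least 4, 15.1% had a lower log2 fold change, so a difference of this size was common between these libraries. If the interval reflects read counting alone, it corresponds to 742 reads in the control library and 723 in the Klf9-OE library. These numbers are not scaled to library size. Reads per FPKM in Klf9-OE were 1.22 times those in control by the same reckoning (median of 4881 genes). The number for Klf9-OE may be too high, since reads there may have been counted more than once, which was not tested. Read numbers matched the FPKM ratio and the factor of 1.22 within 10% for only 4 of the 9 genes, *Prdm1* among them. For *Ifitm3*, at 0.827 times the control FPKM, they were 1140 in control and 2279 in Klf9-OE. The intervals of the genes without a match may thus reflect more than read counting, which was not tested.

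The RT-qPCR assay of the study for the same gene rested on a pair of primers, shown here because they mark which stretch of *Prdm1* that assay read, in contrast to the FPKM, which is drawn from the whole transcript. They are printed 5′ to 3′.

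Blimp1 forward primer: ttctcttggaaaaacgtgtggg
Blimp1 reverse primer: ggagccggagctagacttg

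Matched to GENCODE M21 transcripts, the pair bounded 138 nt in the transcript of 5281 nt, from exon 1 to exon 3. In a shorter coding transcript of 4025 nt it bounded 59 nt from exon 1 to exon 2. In the genome (mm10) both primers fell between 44456844 and 44458498 on chromosome 10, inside the coding sequence. A further coding transcript of 2517 nt and one with a retained intron held the reverse primer only. The files give a single value for the gene, so the transcripts were not separated. No 51-mer of the longest coding transcript, the length of the reads, was found in a transcript of another gene.

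*Prdm14* encodes a relative of BLIMP1 that recruits co-repressors of the CBFA2T family to chromatin. It lies on chromosome 1 from 13113425 to 13127256 in the control file. Its FPKM was 5.92 (5.32 to 6.53) in the control library and 4.40 (3.89 to 4.91) in the Klf9-OE library, 0.743 times the control value and a log2 fold change of -0.42. The intervals lay apart, but they were the widest relative to the value among the 9 genes, with half-widths of 10.3% and 11.6%. The locus ended 93 nt earlier in the Klf9-OE file, and the effect of this on the FPKM was not tested. The level of *Prdm1* relative to *Prdm14* was 0.916 in the control library and 0.987 in the Klf9-OE library.

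*Tfap2c* encodes the transcription factor AP-2 gamma, which acts with PRDM1 in germ cell specification. It lies on chromosome 2 from 172549593 to 172558621 on the forward strand. Its FPKM was 10.6 (9.72 to 11.4) in the control library and 8.04 (7.36 to 8.72) in the Klf9-OE library, 0.762 times the control value and a log2 fold change of -0.39 with intervals apart. The locus began 3039 nt further upstream in the Klf9-OE file, so the transcript models behind the values may not have been the same, and the effect of this on the FPKM was not tested. Among the other AP-2 genes, *Tfap2a* was at 0.722 and 0.772, *Tfap2e* at 0.285 and 0.156 and *Tfap2b* at 0.00204 and 0 in control and Klf9-OE, and *Tfap2d* was listed at 0 in both. Most AP-2 transcript in these libraries was thus that of *Tfap2c*.

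The wider PRDM family gave no common direction. Of 17 family genes in both files, 11 had an FPKM of at least 1 in at least 1 library. The intervals lay apart and lower in Klf9-OE for 3 of them, against 20.3% of all 12259 genes at that level. The 3 were *Prdm1*, *Prdm14* and *Prdm10*, the last at 3.96 (3.29 to 4.63) and 2.81 (2.36 to 3.26). *Prdm9*, which places recombination hotspots in meiosis, had the highest level of the family, 45.1 (42.7 to 47.4) and 44.4 (42.6 to 46.2), with overlapping intervals. It and *Prdm10* were picked out after their values were seen. The family median log2 fold change was -0.05.

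*Dppa3* encodes Stella, a small chromatin protein that protects the maternal genome from demethylation after fertilisation and marks PGCs soon after specification. It lies on chromosome 6 from 122626424 to 122630271. Its FPKM was 294 (279 to 309) in the control library and 179 (169 to 188) in the Klf9-OE library. The Klf9-OE value was 0.608 times the control value, with a log2 fold change of -0.72 that could lie between -0.87 and -0.57 over the bounds. Of the genes with an FPKM of at least 4, 4.89% had a lower log2 fold change. In its transcript, 17.0% of 51-mers also occurred in transcripts of 3 other genes, the pseudogene *Dppa3-ps* among them, so part of its reads could be shared.

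The genes around *Dppa3* were split. Of the 4 described, *Apobec1* and *Nanog* were lower like *Dppa3* with intervals apart, *Gdf3* had overlapping intervals and *Slc2a3* was higher. This stretch of chromosome 6 holds several genes active in pluripotent cells. Distances are given between the lower coordinates of the loci, whatever the strand, and need not be those between transcription starts. *Apobec1*, a cytidine deaminase 48.6 kb before *Dppa3* by this measure, was at 4.98 (3.81 to 6.14) and 1.31 (1.02 to 1.60), 0.263 times the control value. *Nanog*, the homeodomain factor of naive pluripotency, lies 81.1 kb after *Dppa3* by the same measure and was at 11.7 (10.6 to 12.7) and 6.30 (5.63 to 6.97). *Gdf3*, a TGF-beta family ligand, lay between *Apobec1* and *Dppa3* and had overlapping intervals, 5.10 (4.47 to 5.73) and 4.64 (4.10 to 5.18). *Slc2a3*, a glucose transporter 101 kb after *Dppa3* by that measure, was higher in Klf9-OE, at 29.1 (28.0 to 30.2) and 39.3 (38.2 to 40.4). Other genes named for expression in pluripotent cells were also split. *Dppa5a* was lower, at 135 (128 to 142) and 95.3 (89.2 to 101). *Dppa4* was higher, at 217 (206 to 227) and 278 (266 to 291), and so was *Dppa2*, which encodes its binding partner, at 5.98 (5.27 to 6.69) and 8.94 (8.16 to 9.73).

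**Figure D2:**
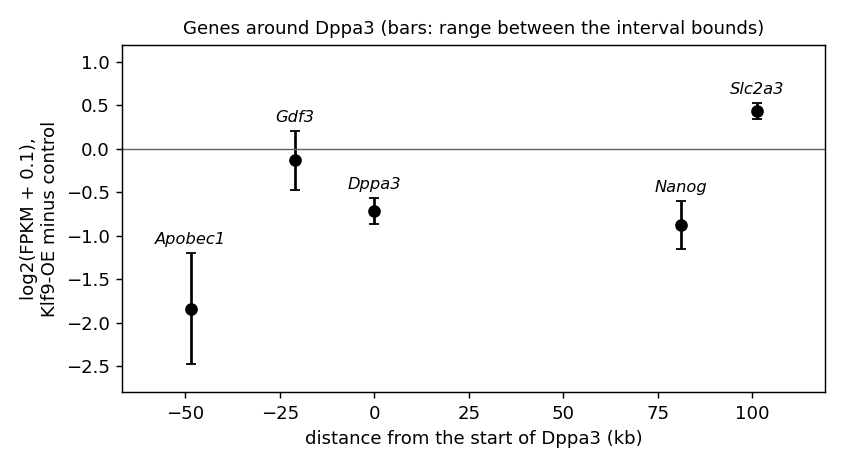
Log2 fold change (Klf9-OE minus control, 1 library each) of *Dppa3* and 4 neighbouring genes against the distance of the lower coordinate of each locus from that of *Dppa3* in kb, whatever the strand, bars spanning the opposite bounds of the Cufflinks intervals. *Apobec1*, *Dppa3* and *Nanog* lie below 0, the bar of *Gdf3* crosses 0 and *Slc2a3* lies above it.

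*Alpl* encodes tissue-nonspecific alkaline phosphatase, the enzyme whose staining reveals PGCs and embryonic germ cell colonies. It lies on chromosome 4 from 137741731 to 137796384 on the reverse strand, and the files list 3 transcription starts for it. Its FPKM was 26.9 (25.3 to 28.4) in the control library and 16.2 (15.1 to 17.3) in the Klf9-OE library. This was 0.603 times the control value, a log2 fold change of -0.73, with 4.75% of genes with an FPKM of at least 4 lower still. Of the other phosphatase genes, *Alppl2* was at 0.0190 and 0, *Akp3* was at 0 and 0.0403 and *Alpi* was listed at 0 in both, so *Alpl* was the source of nearly all alkaline phosphatase transcript. The level of *Dppa3* relative to *Alpl* was 11.0 in either library, and their log2 fold changes were the closest to each other among the 9 genes. No 51-mer of its longest coding transcript occurred in another gene.

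The promoters that RefSeq (GRCm38.p6) gives for these genes, 250 bases before to 50 after a transcription start, were searched on both strands for GGGCGG (the GC box, bound by Sp and Krüppel-like factors), for CACCC, and for GAAA repeated after a gap of 2 bases, a pattern like the interferon-stimulated response element and called the GAAA repeat here. Of 32851 promoters of this length, 35.7% held the GC box, 57.5% CACCC and 3.44% the GAAA repeat. The table matched 7 of the 10 genes, without *Prdm14*, *Tfap2c* and *Dppa3*. The upstream promoter of *Alpl*, chr4:137796335-137796634 on the reverse strand, is shown because *Alpl* differed most and its promoter held the most matches, in capitals, namely 3 GC boxes, of which 2 overlap each other, and 4 copies of CACCC. It was 70.0% G and C, against a median of 52.7% over all promoters.

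Alpl: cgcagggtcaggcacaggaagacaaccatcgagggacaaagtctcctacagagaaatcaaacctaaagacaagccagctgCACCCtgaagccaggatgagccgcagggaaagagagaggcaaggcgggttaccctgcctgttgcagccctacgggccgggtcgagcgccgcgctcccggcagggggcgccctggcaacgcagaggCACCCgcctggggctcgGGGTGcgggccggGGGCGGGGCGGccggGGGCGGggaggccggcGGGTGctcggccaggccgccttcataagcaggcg

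The second *Alpl* promoter, which starts inside the gene, held 0 GC boxes and 1 CACCC. The promoters of *Prdm1* and *Prmt5* held no match to any of the 3 patterns. That of *Wdr77*, whose joint value was close between the libraries, held 2 GC boxes, 1 CACCC and 0 GAAA repeats. A match describes letters only, and which start of *Alpl* was in use was not measured. Whether matches go with the differences between the libraries was not tested.

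The *Ifitm* genes did not move together. They encode small interferon-induced membrane proteins that block the entry of viruses, and *Ifitm3* (fragilis) and *Ifitm1* are classical markers of nascent PGCs. All lie in a cluster on chromosome 7, *Ifitm2* from 140954839 to 140955961, *Ifitm1* from 140967429 to 140969827 and *Ifitm3* from 141009590 to 141010744, with *Ifitm1* on the forward strand and the others on the reverse strand. Their promoters are shown side by side because the genes are neighbours and relatives but differed in direction, with GC boxes, CACCC and GAAA repeats in capitals.

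Ifitm1: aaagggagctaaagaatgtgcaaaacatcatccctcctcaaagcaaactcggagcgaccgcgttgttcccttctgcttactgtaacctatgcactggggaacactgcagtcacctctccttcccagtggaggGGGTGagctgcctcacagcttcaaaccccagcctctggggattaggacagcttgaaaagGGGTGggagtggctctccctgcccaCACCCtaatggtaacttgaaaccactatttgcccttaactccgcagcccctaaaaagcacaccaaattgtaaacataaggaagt
Ifitm2: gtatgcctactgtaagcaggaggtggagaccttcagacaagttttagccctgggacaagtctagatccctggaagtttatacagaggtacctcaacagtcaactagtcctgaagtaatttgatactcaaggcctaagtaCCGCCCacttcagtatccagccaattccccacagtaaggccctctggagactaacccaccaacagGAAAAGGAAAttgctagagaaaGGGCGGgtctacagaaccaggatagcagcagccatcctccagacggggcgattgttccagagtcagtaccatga
Ifitm3: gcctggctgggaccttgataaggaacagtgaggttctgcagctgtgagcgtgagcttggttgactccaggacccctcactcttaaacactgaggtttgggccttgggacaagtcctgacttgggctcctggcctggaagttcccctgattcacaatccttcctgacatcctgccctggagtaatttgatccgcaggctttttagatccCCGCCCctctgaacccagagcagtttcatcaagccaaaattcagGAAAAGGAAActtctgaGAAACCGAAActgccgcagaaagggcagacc

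These promoters lie at chr7:140967826-140968125 (forward), chr7:140955912-140956211 (reverse) and chr7:141010695-141010994 (reverse). That of *Ifitm1*, which lies at a start inside the annotated span of the gene, held 3 copies of CACCC and 0 of either other pattern. That of *Ifitm2* held 2 GC boxes and 1 GAAA repeat, and that of *Ifitm3* held 1 GC box and 2 GAAA repeats, with no CACCC in either. No match overlapped a match to another pattern.

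*Ifitm1* had an FPKM of 257 (243 to 270) in the control library and 349 (334 to 365) in the Klf9-OE library, 1.36 times the control value and a log2 fold change of 0.44, and 92.9% of genes with an FPKM of at least 4 had a lower one. *Ifitm3* was lower, at 185 (174 to 196) and 153 (146 to 159), 0.827 times the control value. *Ifitm2* was at 396 (377 to 415) and 368 (350 to 386), 0.929 times the control value, with overlapping intervals. The sum of the 3 genes was almost the same in both libraries, 837 and 870, while *Ifitm1* made up 30.6% of it in the control library and 40.1% in the Klf9-OE library. The share of *Ifitm2* was 47.3% and 42.3%, and that of *Ifitm3* 22.1% and 17.6%. The family members *Ifitm5* (0.647 and 1.30), *Ifitm10* (1.47 and 1.82) and *Ifitm6* (0.216 and 0.177) were low, with overlapping intervals, and *Ifitm7* was listed at 0 in both.

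These related genes share sequence, which bears on how reads could be assigned. The coding sequences of *Ifitm2* and *Ifitm3* were identical at 75.9% of aligned positions, with an unbroken identical run of 69 nt, longer than a read. *Ifitm1* was identical to *Ifitm2* at 60.4%, with a longest run of 40 nt, and to *Ifitm3* at 63.5%, with a run of 64 nt that is also longer than a read. Of the 51-mers in their transcripts, 48.3% of those of *Ifitm2*, 9.71% of those of *Ifitm3* and 6.01% of those of *Ifitm1* also occurred in transcripts of other genes, pseudogenes included. How shared reads were divided among these genes is not given in the sources used here, and their values are uncertain to that extent, that of *Ifitm2* most by the share of its 51-mers.

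Interferon-induced genes did not show a common direction either. Of 10 such genes with an FPKM of at least 1 in at least 1 library, intervals lay apart and higher for 3 (14.9% of all genes at that level) and lower for 2 (20.3%). *Usp18*, a brake on interferon signalling, was higher at 1.51 (1.13 to 1.89) and 2.58 (2.14 to 3.03), and *Rsad2*, an antiviral enzyme, at 0.426 (0.293 to 0.558) and 1.26 (1.06 to 1.47). *Isg15*, a ubiquitin-like protein named here after its values were seen, was lower at 40.8 (37.1 to 44.5) and 31.6 (28.9 to 34.2). The list median was 0.12.

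*Prmt5* encodes the arginine methyltransferase that works with BLIMP1 in PGCs and symmetrically dimethylates histones and splicing proteins. It lies on chromosome 14 from 54507182 to 54517470. Its FPKM was 53.7 (50.8 to 56.6) in the control library and 52.6 (50.2 to 55.0) in the Klf9-OE library, 0.979 times the control value. The log2 fold change of -0.03 could lie between -0.17 and 0.11 over the bounds. No 51-mer of its longest coding transcript occurred in another gene.

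*Wdr77* encodes MEP50, the obligate partner of PRMT5 in the methylosome. In the control library it had an FPKM of 37.0 (35.0 to 39.0), and the adjacent *Ovgp1* had 1.24 (0.802 to 1.67). The Klf9-OE file lists both genes under a single locus on chromosome 3 from 105959498 to 105987423, at 39.7 (37.6 to 41.7). Set against the control sum of 38.2, the joint value was 1.04 times as high. No value of *Wdr77* alone can be given for the Klf9-OE library. Of the 51-mers in the *Wdr77* transcript, 33.9% also occurred in transcripts of 3 other genes, so part of its reads could be shared.

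Other methylosome genes were close between the libraries. The adaptors *Clns1a* (19.6 and 19.9) and *Riok1* (11.7 and 12.7) and the Sm proteins *Snrpd1* (120 and 128) and *Snrpd3* (340 and 341), substrates of the complex, had overlapping intervals. *Coprs*, the adaptor that brings PRMT5 to histones, was lower, at 157 (151 to 163) and 133 (128 to 138). *Snrpb*, a further Sm protein, was the exception, at 299 (284 to 313) and 653 (624 to 682). Among other arginine methyltransferases, *Prmt1* was at 203 (194 to 212) and 164 (156 to 171), and *Prmt7* at 109 (104 to 115) and 111 (105 to 116).

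**Figure D3:**
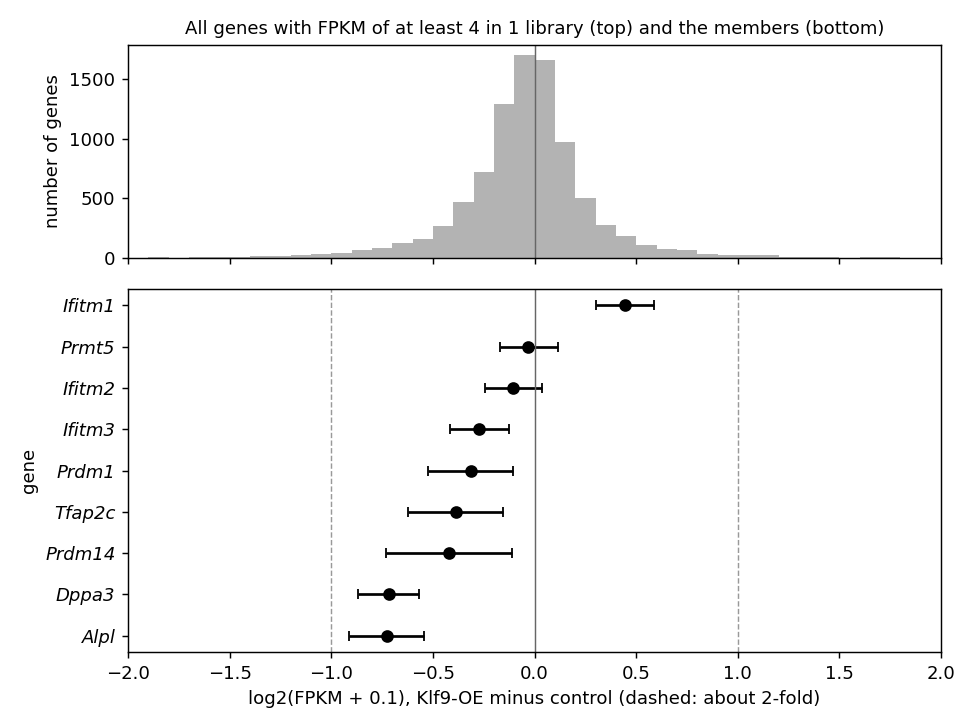
Log2 fold change (Klf9-OE minus control, 1 library each), above as a histogram of genes with an FPKM of at least 4 in at least 1 library (224 genes beyond -2 or 2 not drawn) and below for each of the 9 genes, bars spanning the opposite bounds of the Cufflinks intervals. The 9 genes lie inside the dashed lines of about 2-fold, *Alpl* (-0.73) and *Dppa3* (-0.72) in the left shoulder of the histogram and *Ifitm1* (0.44) in the right.

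The genes that act with these factors or under them were compared by lists, counting genes with an FPKM of at least 1 in at least 1 library. Of all 12259 such genes, intervals lay apart and lower in Klf9-OE for 20.3% and higher for 14.9%. Of 8 co-repressor genes that BLIMP1 is known to use, intervals lay apart and lower for 5 and higher for 0, with a median log2 fold change of -0.31. *Tle3*, a Groucho-type co-repressor, was at 36.5 (35.0 to 38.0) and 25.2 (24.3 to 26.1), *Tle1* at 31.4 (29.7 to 33.2) and 24.4 (23.0 to 25.8), and the histone deacetylase *Hdac2* at 246 (237 to 255) and 195 (192 to 199). *Kdm1a* (108 and 89.2) and *Ehmt2* (151 and 135) were the other 2, and *Hdac1* had overlapping intervals (82.4 and 90.7). Of the co-factors of PRDM14, *Cbfa2t2* was slightly lower, at 17.6 (16.7 to 18.5) and 15.9 (15.2 to 16.7), and its relative *Runx1t1* was lower at 1.87 (1.67 to 2.07) and 1.32 (1.16 to 1.47). *Ezh2*, *Suz12* and *Eed*, the core of Polycomb complex 2, had overlapping intervals.

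Of genes known to be repressed by BLIMP1, 6 of 11 had an FPKM of at least 1 in at least 1 library. The intervals lay apart and lower for 1 and higher for 0, and the median was -0.06. The lower gene was *Klf4*, and *Myc* had overlapping intervals, 4.14 (3.54 to 4.74) and 4.75 (4.20 to 5.30), both named after their values were seen. *Hoxb1* and *Hoxb3*, somatic genes that BLIMP1 holds down in PGCs, were at or below 0.251 in both libraries. The genes repressed by PRDM14 were split, with 3 lower and 2 higher of 7. *Dnmt3l*, a co-factor of de novo DNA methylation, was at 80.9 (77.2 to 84.7) and 38.1 (36.0 to 40.2), less than 0.5 times the control level. *Dnmt3a* (27.1 and 22.3) and *Fgfr2* (5.21 and 4.07) were the others that were lower, *Uhrf1* (36.9 and 47.9) and *Ehmt1* (17.2 and 23.7) were higher, and *Dnmt3b* (5.99 and 6.15) had overlapping intervals.

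Of 13 genes of the signals that specify PGCs, 12 reached an FPKM of 1. The intervals lay apart and lower for 4 and higher for 2, with a median of -0.08. *Wnt3*, which makes epiblast cells able to respond to BMP4, was higher at 2.26 (1.90 to 2.62) and 6.33 (5.24 to 7.43). *Bmp2* was lower at 1.07 (0.854 to 1.28) and 0.690 (0.532 to 0.849). *Smad1* (4.78 and 3.62) and *Smad5* (23.5 and 18.9), which carry the BMP signal, were also lower, whereas *Smad4*, their common partner, was higher at 19.5 (18.4 to 20.6) and 23.1 (21.9 to 24.3). These *Smad* genes were named after their values were seen. *Bmp4* had overlapping intervals, 1.86 (1.46 to 2.26) and 1.35 (1.05 to 1.66).

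The label of the cells was checked with 12 genes of germ cell identity, which summed to an FPKM of 1713 in the control library and 1566 in the Klf9-OE library. Intervals lay apart and lower in Klf9-OE for 8 of them and higher for 3, and the median was -0.25. For these and the following lists, the shares over all 12259 genes with an FPKM of at least 1 were 20.3% lower and 14.9% higher. *Ddx4* (300 and 292, overlapping) and *Dazl* (351 and 378), RNA-binding proteins of the germ line picked out here after their values were seen, were not lower, while *Pou5f1*, whose reporter had been used to sort the cells before culture, was (387 and 277). Besides *Dazl*, the higher genes were *Sox2* (40.6 and 55.3) and *Utf1* (103 and 130). *Rhox6* (27.8 and 15.7) and *Rhox9* (33.6 and 22.3) differed most. Whether *Dppa3* and *Alpl* moved with these genes for a common reason was not tested. Markers of gonad somatic cells summed to 26.8 and 35.6, with 5 of 9 apart and higher and 1 lower. Among them *Star* was listed at 0 in the control library and at 2.39 (2.12 to 2.67) in the Klf9-OE library. *Wt1* (3.41 and 5.64), *Amh* (5.99 and 9.29) and *Lhx9* (1.34 and 2.32) were also higher with intervals apart. *Sox9* (2.04 and 1.09) was the lower gene, and *Foxl2* was below 1 in both libraries. Mesenchyme markers summed to 126 and 135, mostly *Vim*, with 4 of 7 higher and 0 lower, and *Lum* listed at 0 in control. Endothelial markers summed to 3.92 and 7.12 and macrophage and blood markers to 6.63 and 5.73, and single genes in both lists were split. *Cdh5*, the only endothelial marker with an FPKM of at least 1 in either library, was higher, at 2.55 times the control level. *Csf1r*, a macrophage marker, was also higher (0.307 and 1.18), and both had intervals apart. The endothelial marker *Tek* (0.735 and 0.439) was lower with intervals apart, as were *Lyz2* and *C1qb*, which were listed at 0 in Klf9-OE. *Emcn* and the gonad somatic marker *Tcf21* were listed at 0 there too, with overlapping intervals. *Ifitm* genes and *Alpl* are also expressed outside the germ line, and the part of other cells in their values was not tested.

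**Figure D4:**
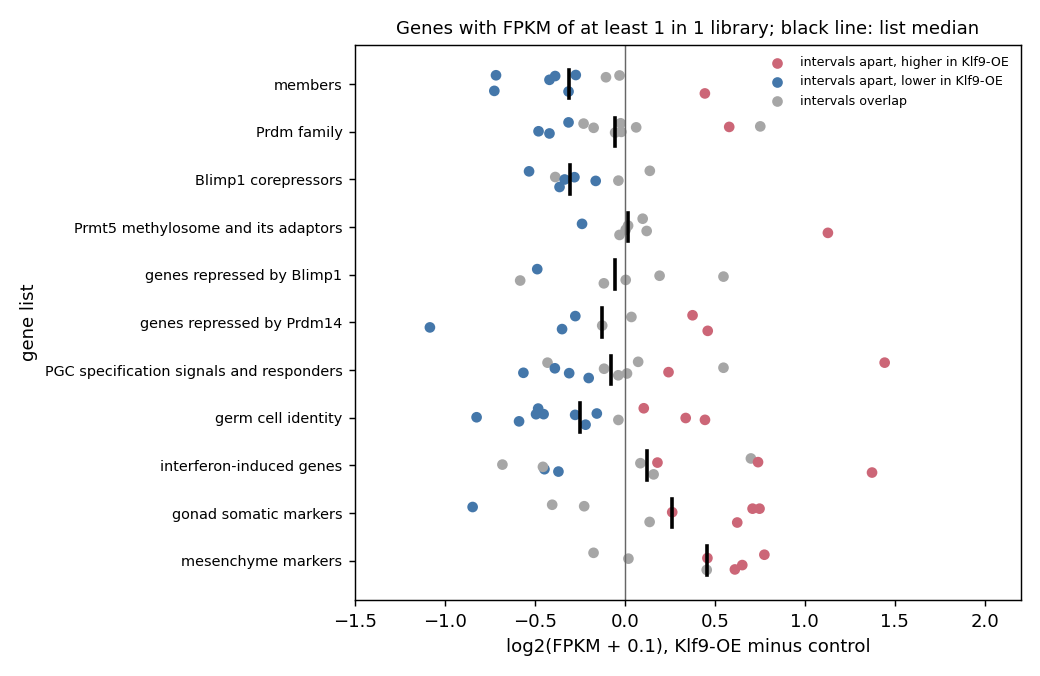
Log2 fold change (Klf9-OE minus control, 1 library each) of single genes in 11 lists, points coloured by whether the Cufflinks intervals lie apart, with a black line at the list median and *Star*, listed at 0 in control, not drawn. The 9 genes have a median of -0.31, the BLIMP1 co-repressors -0.31 and the germ cell list -0.25, whereas the gonad somatic (0.26) and mesenchyme (0.46) lists have medians above 0.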

How the data were processed

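Libraries were made with the TruSeq RNA kit v2 and sequenced as 51-mer single-end reads. The authors mapped them to mm10 with RefSeq gene models by TopHat2 and Bowtie, and deposited the FPKM that Cufflinks estimated for each locus and a 95% interval (FPKM equals RPKM here, the reads being single-end). Versions are not given in the sources used here. Locus starts in the files were 1 below those of RefSeq for most genes and were raised by 1. The control library had 30382 rows and the Klf9-OE library 39071, so the set of loci was not the same in both. The effect of this on the ratios and on the shares over all genes was not tested.

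FPKM of rows with the same symbol were summed. Rows under a joint name and 6 rows without an OK status were left out. Fold changes used a pseudocount of 0.1, and ratios none. Reads behind a value were taken as (2 × FPKM / (upper bound − FPKM)) squared. By this formula 89.0% of 1767 genes with 1 to 9 reads had an even number in the Klf9-OE library, against 36.4% of 2132 genes in the control library. Reads in the Klf9-OE library may thus have been counted more than once, which was not tested, and a wider Klf9-OE interval was tried. The genes and lists were chosen with earlier results of these data known. A few list genes are not reported here. All 10 genes are named, genes of lists where intervals lay apart with a ratio of at least 1.5, and any gene of lists of at most 10. The calculation of fold changes and interval calls was tested on simulated data. Gene models and transcripts came from GENCODE M21 and promoters from RefSeq GRCm38.p6. Python 3.11.15, numpy 2.4.6, pandas 2.3.3 and Biopython 1.88 were used.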

Additional observations from a re-analysis of the deposited data

How the results depend on the processing

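The log2 fold changes of the 9 genes were recalculated with pseudocounts of 0.01 and 1, after rescaling to the same upper quartile, the same sum or a median ratio of 1, and with the largest row of each symbol, 54 values in all. Each stayed within the range that the interval bounds of its gene allow, and none of the 7 genes with intervals apart changed direction. Each gene had 1 row in either library, so the setting with the largest row could not change its value. Rescaling moved all genes by nearly the same amount, 0.03 to 0.06 on the log2 scale. That is less than the bounds of any of the 9 genes span, so these settings could hardly have given another outcome. *Prmt5*, whose intervals overlap, ranged from -0.03 to 0.03, *Dppa3* from -0.72 to -0.66, *Alpl* from -0.73 to -0.67, *Prdm1* from -0.32 to -0.26 and *Ifitm1* from 0.44 to 0.50. The numbers of genes with intervals apart, 6 lower and 1 higher, were the same genes with the Klf9-OE interval widened by the square root of 2, after rescaling to a median ratio of 1, and with both, the last chosen after seeing the data. With a ratio of at least 1.5 in place of 2, 2 genes were lower instead of 0. The share of all genes that differed 2-fold was 19.3% over all genes, 7.72% with an FPKM of at least 1 and 5.6% with at least 4 (the last limit chosen after seeing the data), since fewer genes with few reads enter. No paired analysis was possible because each condition had 1 library, and for the same reason no library could be left out.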
